A study of Mus musculus with 6 samples.

Results

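Chemokines and their receptors were followed in sciatic nerves of mice in which Zeb2, also called Sip1, was deleted with DhhCre. The members were the genes of the array table whose symbols begin as the Ccl, Cxcl, Cx3cl1 and Xcl1 ligands or the Ccr, Cxcr, Cx3cr1, Xcr1 and Ackr receptors do. They numbered 54 of 20239 named genes, 33 ligands and 21 receptors, each with 1 probe set, and all 54 were tested without a filter on low values. The 3 mutant mice had the genotype DhhCre::Sip1 flox/flox and the 3 control mice the genotype Sip1 flox/flox, so that the floxed alleles were common to all 6 animals and Cre was not. All were 25 days old. DhhCre drives recombination in the Schwann cell lineage, and Zeb2 encodes a zinc finger repressor. Whole nerves were profiled, 1 mouse per array, so the RNA came from Schwann cells, endoneurial and perineurial cells, vessels, immune cells and adhering tissue together, and fewer cells of a type and less RNA per cell cannot be told apart.

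Chemokines are small secreted proteins that direct the migration of leukocytes along gradients, and are grouped as CC, CXC, CX3C and XC by the spacing of their first cysteines. They act on G protein-coupled receptors that signal through inhibitory G proteins, while the atypical receptors bind chemokines without this signalling and take them up or carry them. In peripheral nerve, Ccl2 and its receptor Ccr2 are known for bringing monocytes into injured nerve, and Cx3cr1 is a receptor of resident macrophages.

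The nerves differed in ways outside the chemokine genes. Zeb2 was 10.96, 10.66 and 11.01 in mutants 1 to 3, against 11.67, 11.57 and 12.02 in controls 1 to 3, on the log2 scale of the array values used throughout. Its difference was −0.88 (SE 0.15, limma adjusted p = 0.0137, rising to 0.0522 without mutant 1), and the position of its probes relative to the floxed part is not given in the labels. Mean log2 values of 12 muscle markers were 7.47, 12.64 and 9.91 in mutants 1 to 3. In controls 1 to 3 they were 7.47, 12.61 and 10.35. Replicate 2 of each group was thus the richest in muscle, and these are the 2 muscle-rich samples named below. Replicate 3 lay above replicate 1 in both groups, so leaving out replicate 2 did not remove the muscle difference. Mean log2 values of 8 adipocyte markers were 10.45, 10.93 and 10.37 in mutants 1 to 3. In controls 1 to 3 they were 12.11, 11.14 and 9.82, and none of the 8 markers passed. The mutants were 2 males and 1 female and the controls 1 male and 2 females by Xist and Y-linked genes. Of 4 Schwann cell markers measured, S100b (−1.51) and Erbb3 (−1.14) fell and 2 did not pass, with a median of −0.94 and a highest value of 0.03. Erbb3 did not pass when mutant 1 (adjusted p = 0.0635) or mutant 3 (0.051) was left out. The arrays carry no detection calls. The 3 Y-linked genes measured read 4.29 to 5.56 on the arrays of females, which lack them, and Cxcl15 and Cxcr2 lay below 5.56 on all 6 arrays.

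Of the 33 ligands, 5 rose and 1 fell in the mutant nerves, and 27 did not pass the test (limma, Benjamini-Hochberg adjusted p under 0.05 over all named genes). That is 15.2% of the ligands higher, 3.03% lower and 18.2% in either direction, against 5.74%, 3.89% and 9.62% of all genes. Of the 21 receptors, 2 rose and 1 fell (9.52% and 4.76%, 14.3% in either direction). Whether these shares differ from those of all genes was not tested. The median difference was −0.01 for the ligands and −0.01 for the receptors, beside −0.02 for all genes. The 5 ligands that rose were Cxcl14, Cx3cl1, Ccl2, Ccl12 and Ccl8, and the ligand that fell was Cxcl11. Among the receptors Ackr3 and Ccr2 rose and Ackr1 fell.

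The 250 bases before the annotated gene start are shown for 7 of these 9 genes, and for Cxcl11 and Ccl2 none is shown. The calls rest on the array values and not on these sequences. They are from RefSeq, build GRCm38.p6, written 5′ to 3′ on the strand of the gene. Capitals mark the ZEB core CACCT in Ackr1, Ackr3 and Ccr2, the letters TATAAA in Ccl8, Ccl12, Cx3cl1 and Ackr3, and the core of an interferon response element, GAAA, any 2 bases and GAAA, in Cxcl14.
Cxcl14, chr13:56296552-56296801, minus strand: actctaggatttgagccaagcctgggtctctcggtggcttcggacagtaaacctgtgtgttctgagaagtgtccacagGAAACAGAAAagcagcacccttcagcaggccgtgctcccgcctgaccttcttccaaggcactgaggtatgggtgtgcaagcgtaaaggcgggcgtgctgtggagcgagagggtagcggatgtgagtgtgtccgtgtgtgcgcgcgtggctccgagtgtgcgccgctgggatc
Cx3cl1, chr8:94771930-94772179, plus strand: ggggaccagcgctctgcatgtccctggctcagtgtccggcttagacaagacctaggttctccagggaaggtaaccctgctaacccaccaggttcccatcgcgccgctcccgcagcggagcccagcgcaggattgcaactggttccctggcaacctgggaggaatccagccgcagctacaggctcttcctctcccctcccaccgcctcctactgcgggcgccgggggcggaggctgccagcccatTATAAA
Ccl8, chr11:82114935-82115184, plus strand: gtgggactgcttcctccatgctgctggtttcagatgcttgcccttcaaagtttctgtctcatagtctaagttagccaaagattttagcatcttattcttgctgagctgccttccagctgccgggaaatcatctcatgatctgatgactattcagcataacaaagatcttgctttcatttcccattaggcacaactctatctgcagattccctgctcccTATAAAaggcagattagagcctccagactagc
Ccl12, chr11:82101595-82101844, plus strand: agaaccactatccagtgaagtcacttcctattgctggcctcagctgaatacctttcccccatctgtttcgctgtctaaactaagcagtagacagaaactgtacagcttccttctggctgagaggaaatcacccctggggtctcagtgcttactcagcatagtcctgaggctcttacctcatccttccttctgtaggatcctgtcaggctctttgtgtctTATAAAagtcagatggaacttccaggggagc
Ccr2, chr9:124101933-124102182, plus strand: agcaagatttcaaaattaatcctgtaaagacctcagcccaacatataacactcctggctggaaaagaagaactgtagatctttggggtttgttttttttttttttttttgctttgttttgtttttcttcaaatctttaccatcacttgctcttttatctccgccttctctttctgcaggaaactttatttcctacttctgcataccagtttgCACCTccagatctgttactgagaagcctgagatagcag
Ackr3, chr1:90203730-90203979, plus strand: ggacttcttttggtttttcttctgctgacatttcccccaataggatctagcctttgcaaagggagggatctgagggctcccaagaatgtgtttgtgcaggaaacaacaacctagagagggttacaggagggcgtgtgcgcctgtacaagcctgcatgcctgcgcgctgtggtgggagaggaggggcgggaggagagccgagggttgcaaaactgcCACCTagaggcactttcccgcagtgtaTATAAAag
Ackr1, chr1:173333504-173333753, minus strand: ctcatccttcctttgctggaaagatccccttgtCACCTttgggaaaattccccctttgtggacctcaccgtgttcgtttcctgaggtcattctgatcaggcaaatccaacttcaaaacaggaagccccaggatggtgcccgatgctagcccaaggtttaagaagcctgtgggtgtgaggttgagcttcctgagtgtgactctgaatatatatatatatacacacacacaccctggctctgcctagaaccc

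Each motif was searched on both strands in the 32851 windows of this length in the table, of which 44 belonged to 40 of the 54 members. The core CACCT, a short sequence that ZEB proteins bind, was in 19 of the 44 member windows and in 45.97% of all windows. It was in 3 of the 7 windows of genes that passed, those of the receptors Ackr1, Ackr3 and Ccr2. The longer E-box CACCTG was in 6 of 44 member windows and in none of the 7, with 17.22% among all windows. TATAAA, the letters of a TATA box, was in 13 of 44 member windows and 4 of the 7, with 12.37% among all. It began 32 bases before the annotated start in Ccl8 and 31 in Ccl12, but 6 in Cx3cl1 and 8 in Ackr3, closer than a TATA box usually lies. The interferon response core was in 2 member windows, those of Cxcl10 and Cxcl14, with 2.98% among all. The kappa B core, GGG, any 2 bases and TTTCC, was in 6 member windows, those of Ccl20, Cxcl3, Cxcl1, Cxcl2, Ccr3 and Ccl9, with 1.41% among all, and the AP-1 site TGANTCA was in 5, with 6.75% among all. A window that shares letters with a motif does not show that a factor binds there.

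Cxcl14, a CXC chemokine made constitutively by many epithelia and stromal cells, had the largest difference of the 54 members. It read 11.14, 9.91 and 11.02 in mutants 1 to 3, against 8.10, 8.85 and 8.52 in controls 1 to 3. The groups did not overlap, and the muscle-rich mutant 2 was the lowest mutant while the muscle-rich control 2 was the highest control. The mean was 10.69 ± 0.67 in mutants and 8.49 ± 0.37 in controls (SD, n = 3 each), which is 4.59-fold higher (log2 difference 2.20, SE 0.35, limma adjusted p = 0.00997). Between samples of the same number the difference was 3.03, 1.06 and 2.50. It passed in all 18 alternative analyses, with adjusted p from 0.00123 to 0.0495. Beside Cxcl14, 7 of 7 fibroblast markers and 5 of 5 perineurial markers had positive differences, 2 and 4 of them past the test. Of all 20239 genes, 9285 had positive differences. The summed linear value was 42200 to 47690 in mutants and 34780 to 39130 in controls for the fibroblast markers. For the perineurial ones it was 18980 to 22080 against 8309 to 11090. By mean log2 value the fibroblast list overlapped narrowly, with mutant 2 at 12.007 and control 1 at 12.008. The part of these cells in the rise of Cxcl14 was not tested.

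**Figure D1:**
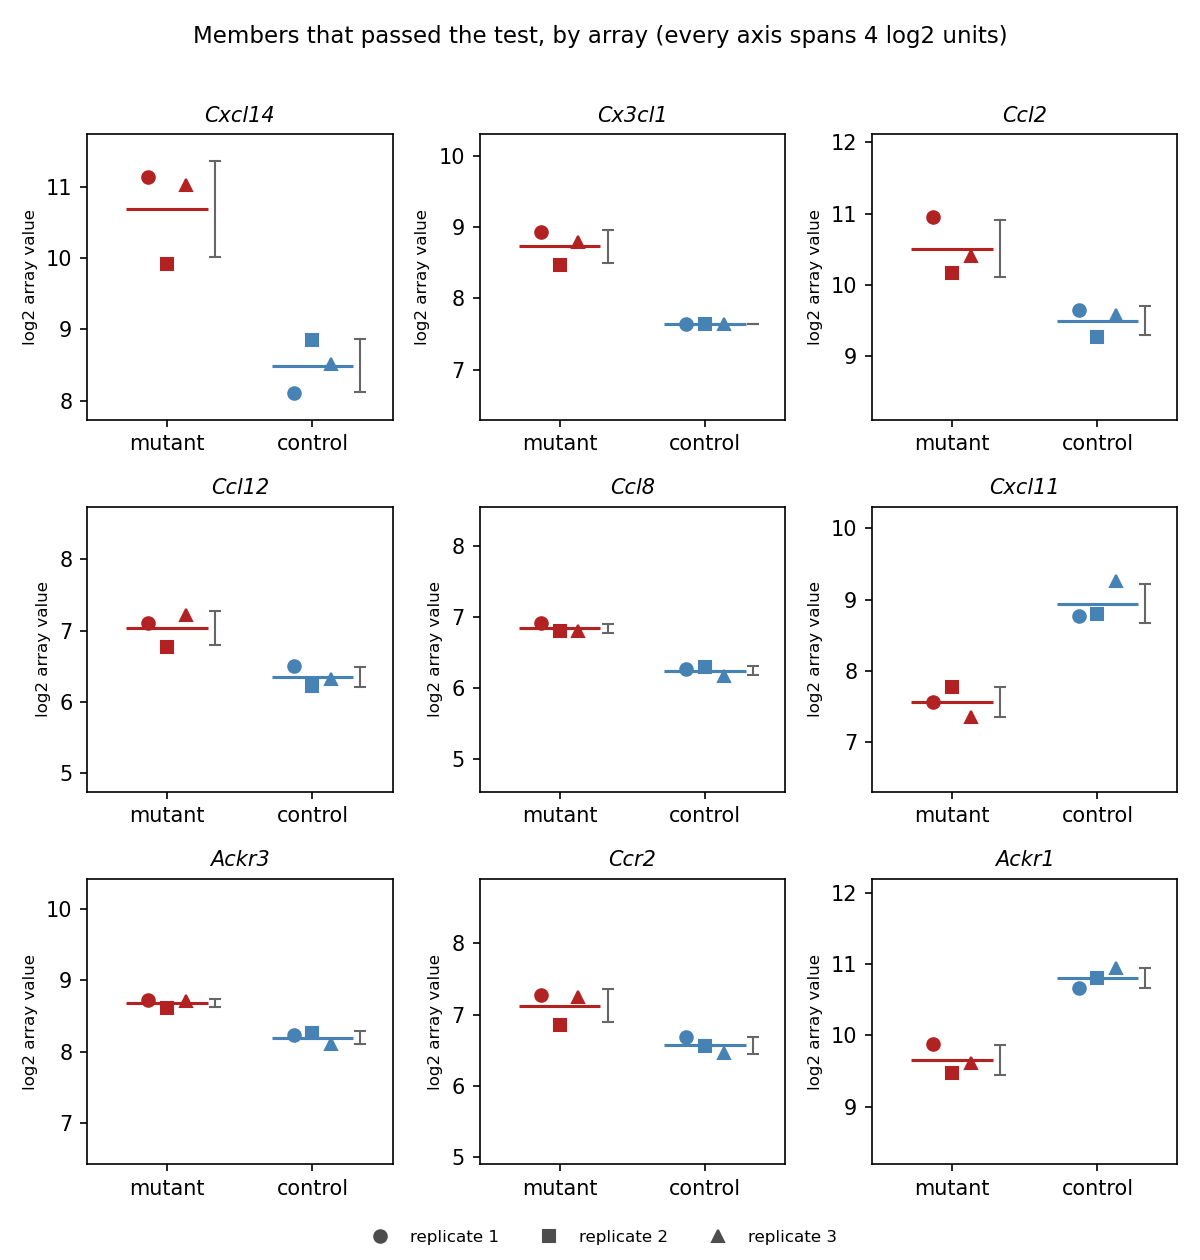
Log2 array values of the 9 members that passed the test, with mutant mice left and control mice right in each panel. Symbols mark the replicate number, the horizontal line is the mean and the grey bar the SD (n = 3), and every axis spans the same log2 range. Mutant and control arrays do not overlap in any panel, and Cxcl14 has the widest separation of means (2.20).

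Cx3cl1, or fractalkine, is a membrane-tethered chemokine that can be shed and acts on Cx3cr1. It read 8.93, 8.47 and 8.79 in the mutants, against 7.64, 7.64 and 7.64 in the controls. The controls were almost identical (SD 0.0023) and all 3 mutants lay above them. It was 2.13-fold higher (log2 difference 1.09, SE 0.13, limma adjusted p = 0.00314), a call that held in all 18 alternatives. Its receptor Cx3cr1 read 9.18, 8.76 and 9.27 in the mutants, against 8.70, 8.61 and 8.82 in the controls. These groups overlapped at mutant 2 and control 3, and the difference of 0.36 did not pass (95% confidence interval 0.01 to 0.71, limma adjusted p = 0.207). Cx3cr1 passed in 2 of 18 alternatives, among them the fit without mutant 2 (0.52, limma adjusted p = 0.0342).

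In the monocyte chemoattractant group, ligands named for attracting monocytes, 3 of 4 members rose. Ccl2, the principal ligand of Ccr2, read 10.96, 10.17 and 10.41 in the mutants, against 9.65, 9.27 and 9.58 in the controls. It was 2.02-fold higher (log2 difference 1.01, SE 0.21, limma adjusted p = 0.0281). Each mutant stood above each control, and the same-numbered differences were 1.31, 0.90 and 0.83.

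Ccl12, a rodent ligand of Ccr2, read 7.11, 6.77 and 7.22 in the mutants, against 6.50, 6.23 and 6.33 in the controls (log2 difference 0.68, SE 0.14, limma adjusted p = 0.0264). Ccl8, which in the mouse acts on Ccr8, read 6.92, 6.80 and 6.80 in the mutants, against 6.27, 6.29 and 6.18 in the controls (log2 difference 0.59, SE 0.082, adjusted p = 0.0062). Neither gene's groups overlapped, and the spread within each group of Ccl8 was small (SD 0.068 in mutants and 0.062 in controls). Ccl7, another Ccr2 ligand, read 9.89, 9.16 and 9.26 in the mutants, against 9.59, 9.13 and 9.12 in the controls. Its groups overlapped and the difference was 0.16 (95% confidence interval −0.37 to 0.69, adjusted p = 0.737).

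The call on Ccl8 held in every leave-out of 1 sample. That on Ccl2 was lost without mutant 1 (adjusted p = 0.052), mutant 3 (0.0901), control 1 (0.0537), control 2 (0.0848) or control 3 (0.063), and with sex as a covariate (0.0691), while a block for the replicate number gave an adjusted p of 0.00566. That on Ccl12 was lost without mutant 1 (0.116), mutant 3 (0.106), control 2 (0.0839) or control 3 (0.071).

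These genes stand side by side on chromosome 11 in the order Ccl2, Ccl7, Ccl11, Ccl12, Ccl8 and Ccl1, with no other protein-coding gene of the RefSeq table starting between them. Along this row of 6 the differences were 1.01, 0.16, 0.53, 0.68, 0.59 and 0.07. The 3 genes that rose were thus interspersed with genes that did not pass. Paralogs of this family are alike in sequence, and how far their probes tell them apart was not tested.

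Ccr2 itself, the receptor of inflammatory monocytes, read 7.27, 6.86 and 7.25 in the mutants, against 6.69, 6.56 and 6.46 in the controls. The groups did not overlap and the log2 difference was 0.56 (SE 0.13, limma adjusted p = 0.0471). The call stood close to the threshold and was lost without mutant 1 (0.185), mutant 3 (0.185), control 1 (0.0655), control 2 (0.121) or control 3 (0.119), and in 4 other alternatives.

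Ccr1, a receptor of monocytes and neutrophils, read 5.86, 5.46 and 6.09 in the mutants, against 5.34, 5.33 and 5.50 in the controls, with overlap at mutant 2 and control 3 (log2 difference 0.41, limma adjusted p = 0.196). Mutant 2 and all controls lay within the range of 4.29 to 5.56 that Y-linked genes gave in females. Ccr1 passed in 2 of 16 alternatives, among them the fit without mutant 2 (0.59, limma adjusted p = 0.032). The remaining 7 CC receptors measured lay between −0.26 for Ccr8 and 0.12 for Ccr10, and none of them passed.

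Macrophage markers were set beside these genes. All 12 had positive differences, from 0.08 for Aif1 to 0.57 for C1qc, with a median of 0.33, and none passed. Over all genes, 9285 of 20239 had positive differences. The summed linear value of the macrophage markers was 10920 to 13790 in mutants and 8238 to 11210 in controls, with overlap between the groups. Of 4 monocyte markers all were positive and none passed, with sums of 1445 to 1687 in mutants and 986.7 to 1608 in controls. Mrc1, the mannose receptor of resident macrophages, had the smallest p of its list (0.41, limma adjusted p = 0.134). The part of these cells in the chemokine differences was not tested.

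Among the ligands of Ccr1 and related receptors none of 5 passed. Ccl9, a rodent macrophage-derived ligand of Ccr1, read 9.55, 9.19 and 9.51 in the mutants, against 9.07, 8.70 and 8.38 in the controls (log2 difference 0.70, SE 0.19, limma adjusted p = 0.0675). Ccl6, its neighbour and another rodent ligand of Ccr1, read 10.02, 9.62 and 10.03 in the mutants, against 9.57, 9.28 and 8.79 in the controls (0.68, SE 0.22, adjusted p = 0.11). Neither gene's groups overlapped. Ccl9 passed in 6 of 18 alternatives, among them the block for replicate number (limma adjusted p = 0.0403) and the fit without control 1 (0.0286). Ccl6 passed in 2 of 18.

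Ccl3, an inflammatory ligand of activated macrophages, differed by −0.36 with overlapping groups (limma adjusted p = 0.221). The other 2 were Ccl5 at −0.20 and Ccl4 at −0.07. Ccl5, Ccl9, Ccl6, Ccl3 and Ccl4 also follow each other on chromosome 11 in that table, in which values of opposite sign thus stood next to each other.

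Ccl11, the eotaxin that attracts eosinophils through Ccr3, read 12.61, 12.27 and 12.68 in the mutants, against 12.12, 11.78 and 12.08 in the controls. The groups did not overlap and the same-numbered differences were 0.48, 0.49 and 0.60. Its log2 difference of 0.53 (SE 0.14) did not pass (limma adjusted p = 0.0717). It passed in 5 of 18 alternatives, among them the block for replicate number (0.0221) and the fit without mutant 2 (0.0353). The other eotaxins, Ccl24 and Ccl26, differed by 0.02 and −0.02, and Ccr3 by 0.12 (adjusted p = 0.592).

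Of the CXCR3 ligands, chemokines induced by interferon that attract activated T cells, 1 of 3 fell and none rose. Cxcl11 read 7.56, 7.78 and 7.36 in the mutants, against 8.78, 8.80 and 9.26 in the controls, with no overlap. It was lower by a log2 difference of −1.38 (SE 0.17, 2.60-fold higher in controls, limma adjusted p = 0.00382) and passed in all 18 alternatives. In the C57BL/6 strain Cxcl11 carries a frameshift and makes no protein. The labels do not give the strain of these mice.

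Cxcl10 read 9.46, 8.71 and 9.02 in the mutants, against 8.74, 8.59 and 8.03 in the controls, with mutant 2 below control 1 (log2 difference 0.61, limma adjusted p = 0.196). Cxcl9 read 7.73, 7.49 and 7.53 in the mutants, against 9.43, 8.54 and 7.56 in the controls, where control 1 and control 2 stood above all mutants and control 3 among them. Its difference was −0.93 (SE 0.42, adjusted p = 0.261), and without control 3 it was −1.40 and passed (0.0301). Their receptor Cxcr3 differed by −0.01 (95% confidence interval −0.31 to 0.29). T and NK cell markers numbered 9 measured, of which 3 were positive and none passed, and the list's summed linear value was 786.5 to 871.4 in mutants and 779.1 to 876.9 in controls.

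None of the 5 neutrophil-attracting CXC ligands passed. They lay between −0.09 for Cxcl2 and 0.10 for Cxcl5, and all 5 had overlapping groups. The widest of their 95% confidence intervals, that of Cxcl3, ran from −0.35 to 0.25, and Cxcl15 lay within the range that Y-linked genes gave in females. Their receptors Cxcr1 and Cxcr2 differed by −0.17 and −0.03. Neutrophil markers were all slightly negative, 8 of 8, with none past the test and a median of −0.14. Among all 20239 genes, 10946 were negative.

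Ccl22, a ligand of the T cell receptor Ccr4, read 6.28, 6.46 and 6.05 in the mutants, against 6.52, 6.89 and 6.64 in the controls (log2 difference −0.42, limma adjusted p = 0.137). Ccl20, the ligand of Ccr6, was nearly constant in the mutants at 6.92, 6.91 and 6.90, against 7.37, 6.97 and 7.13 in the controls (−0.25, adjusted p = 0.267). Ccl25, the ligand of Ccr9, read 7.54, 7.65 and 7.68 in the mutants, against 7.70, 7.84 and 7.91 in the controls (−0.20, adjusted p = 0.269). These 3 ligands had all mutants below all controls without passing. The 6 ligands not described elsewhere, Ccl1, Ccl17, Ccl27a, Cxcl13, Cxcl17 and Xcl1, lay between −0.21 for Xcl1 and 0.13 for Ccl17 with overlapping groups. Cxcl13, which attracts B cells through Cxcr5, had the widest 95% confidence interval of the 6, from −0.77 to 0.48. Cxcr5 differed by 0.00 and Xcr1, the receptor of Xcl1 on dendritic cells, by −0.02. Groups without overlap were found for 14 of 33 ligands (42.4%) and 4 of 21 receptors (19%), against 28.1% of all genes, 16.3% with the mutants above and 11.8% with the mutants below.

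**Figure D2:**
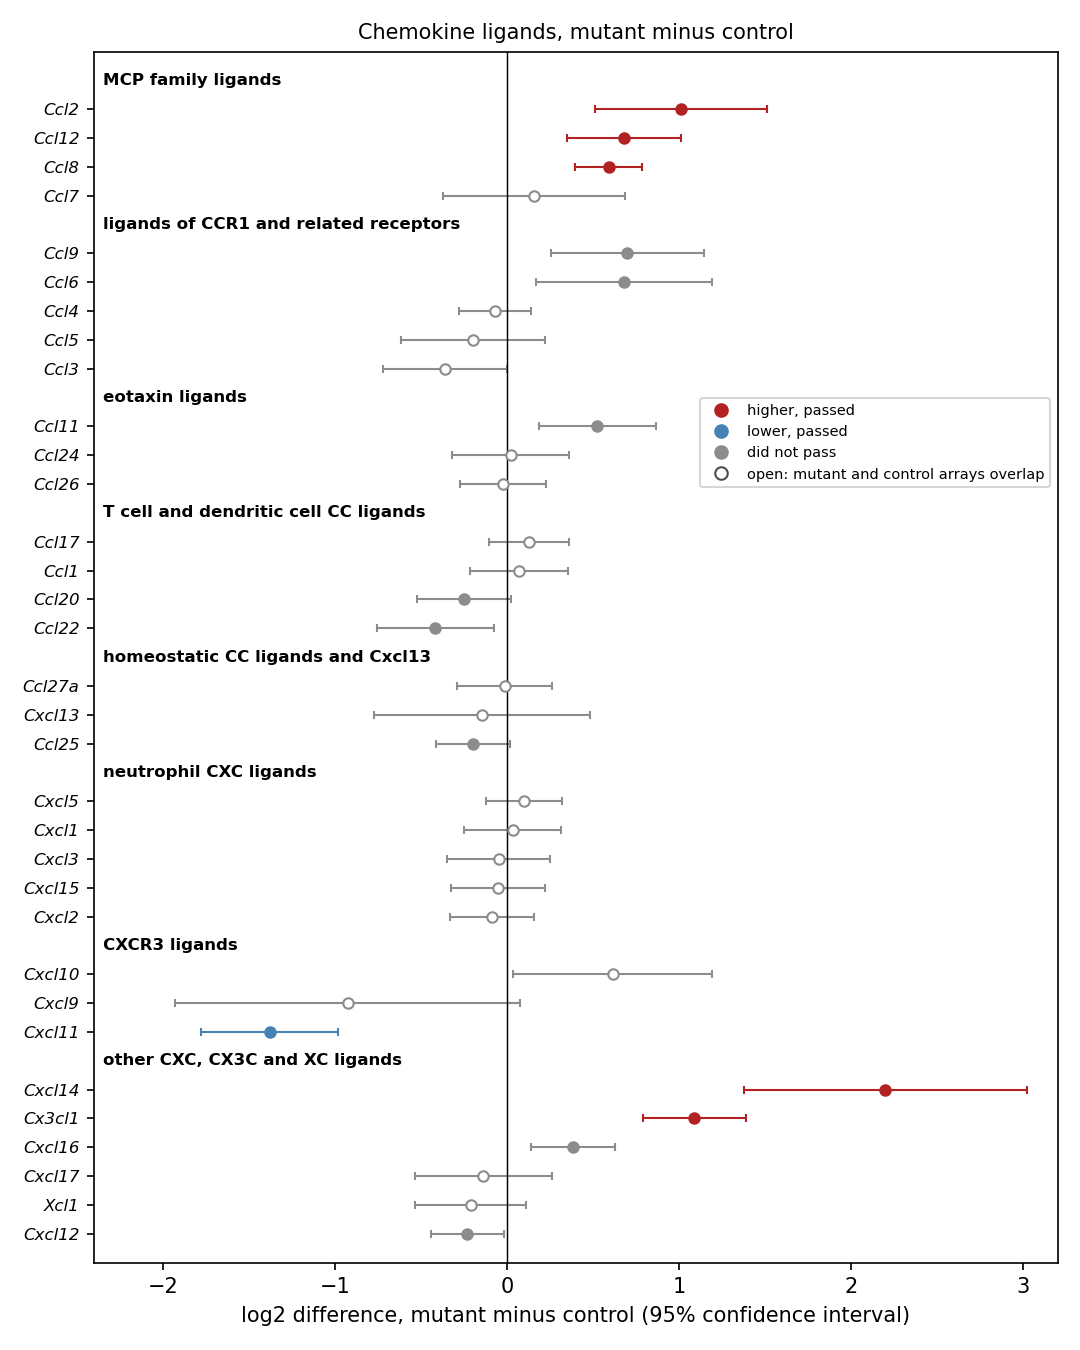
Log2 difference, mutant minus control, of the 33 chemokine ligands with its 95% confidence interval, grouped by role. Red and blue points passed as higher or lower, grey ones did not, and open points have overlapping groups. Most intervals include 0, and the ligands furthest from it are Cxcl14 (2.20) and Cxcl11 (−1.38).

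Cxcl12, which retains and guides many cell types through Cxcr4, read 9.71, 9.76 and 9.71 in the mutants, against 10.06, 9.99 and 9.83 in the controls. All mutants lay below all controls, and the log2 difference of −0.23 (SE 0.089) did not pass (limma adjusted p = 0.186). Its receptor Cxcr4 read 7.59, 7.45 and 7.88 in the mutants, against 7.22, 7.34 and 7.25 in the controls. There all mutants lay above all controls, and the difference of 0.37 (SE 0.12) did not pass either (adjusted p = 0.122).

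Ackr3, the atypical receptor that takes up Cxcl12 and Cxcl11, passed. It read 8.73, 8.61 and 8.71 in the mutants, against 8.23, 8.26 and 8.10 in the controls, with no overlap. It was 1.40-fold higher (log2 difference 0.49, SE 0.085, limma adjusted p = 0.0145), and the call was lost without mutant 1 (0.0855), without mutant 3 (0.0775) and without the 2 muscle-rich samples (0.05004).

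Cxcl16, a transmembrane ligand of Cxcr6, read 7.67, 7.44 and 7.71 in the mutants, against 7.30, 7.12 and 7.24 in the controls (log2 difference 0.38, SE 0.10, limma adjusted p = 0.0687). The groups did not overlap, and Cxcl16 passed in 2 of 17 alternatives, among them the fit without mutant 2 (0.0357). Cxcr6 differed by −0.04, with overlapping groups.

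Ackr1, the Duffy antigen receptor that binds inflammatory CC and CXC chemokines on red cells and on the endothelium of venules, was the receptor that fell. It read 9.88, 9.46 and 9.61 in the mutants, against 10.67, 10.81 and 10.94 in the controls. Every mutant lay below every control, with same-numbered differences of −0.79, −1.34 and −1.34. The mean was 9.65 ± 0.21 in mutants and 10.81 ± 0.14 in controls (SD, n = 3 each), 2.23-fold higher in controls (log2 difference −1.15, SE 0.13, limma adjusted p = 0.00307), and it passed in all 18 alternatives. The other 2 atypical receptors, Ackr4 (0.18) and Ackr2 (−0.02), which clear CC chemokines, had overlapping groups and did not pass.

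Markers of the cells known to carry Ackr1 were compared with it. Of 7 endothelial markers 2 fell, Vwf (−0.43, limma adjusted p = 0.0283) and the tight junction protein Cldn5 (−0.42, 0.035), and 3 were positive. With a block for replicate number neither passed (0.0591 and 0.0503), and leaving out 1 sample ended the call on Vwf in 6 of 6 cases (0.0576 to 0.133) and on Cldn5 in 5 of 6 (up to 0.129). The summed endothelial value was 9727 to 9909 in mutants and 8775 to 11060 in controls. The 3 erythroid markers were all positive without passing, with sums of 579.9 to 2111 in mutants and 666.3 to 1049 in controls. The part of these cells in the fall of Ackr1 was not tested.

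**Figure D3:**
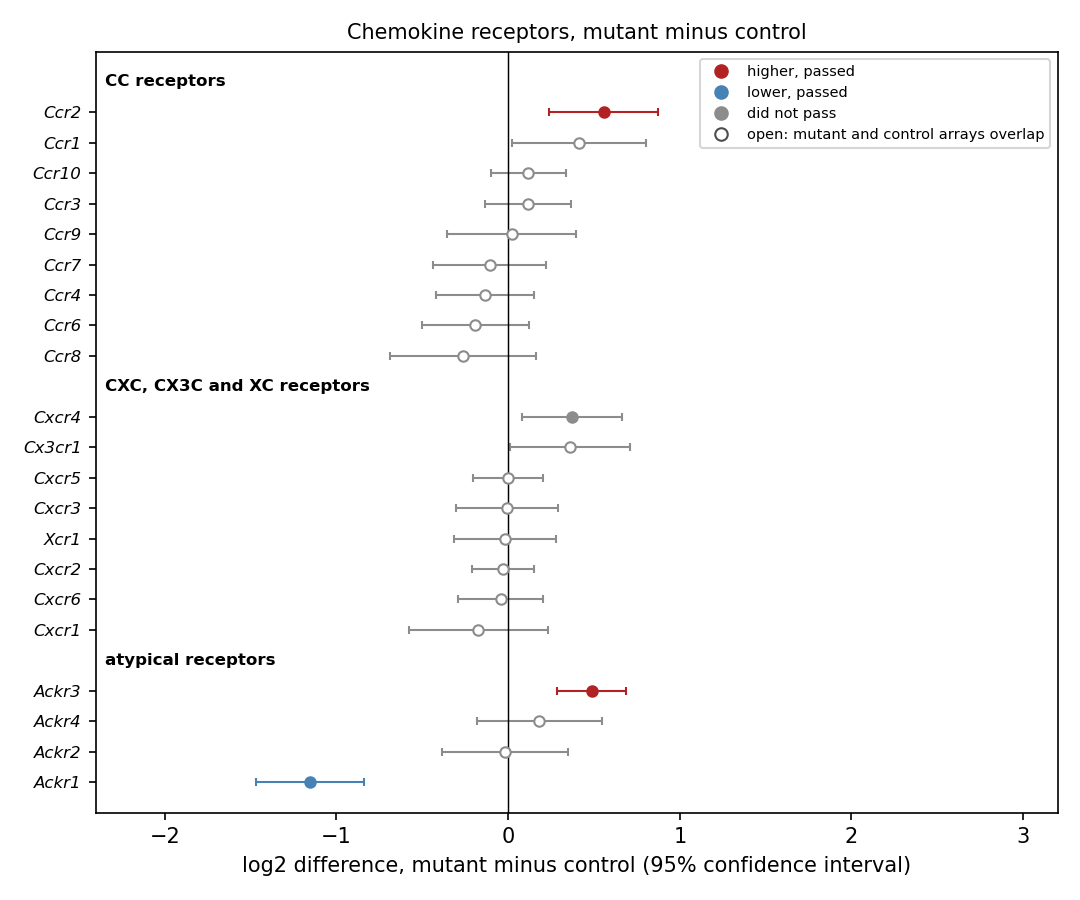
Log2 difference, mutant minus control, of the 21 chemokine receptors with its 95% confidence interval, grouped by role, with colours and open points as for the ligands. Ackr1 (−1.15) stands below 0 and Ackr3 (0.49) and Ccr2 (0.56) above it.

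**Figure D4:**
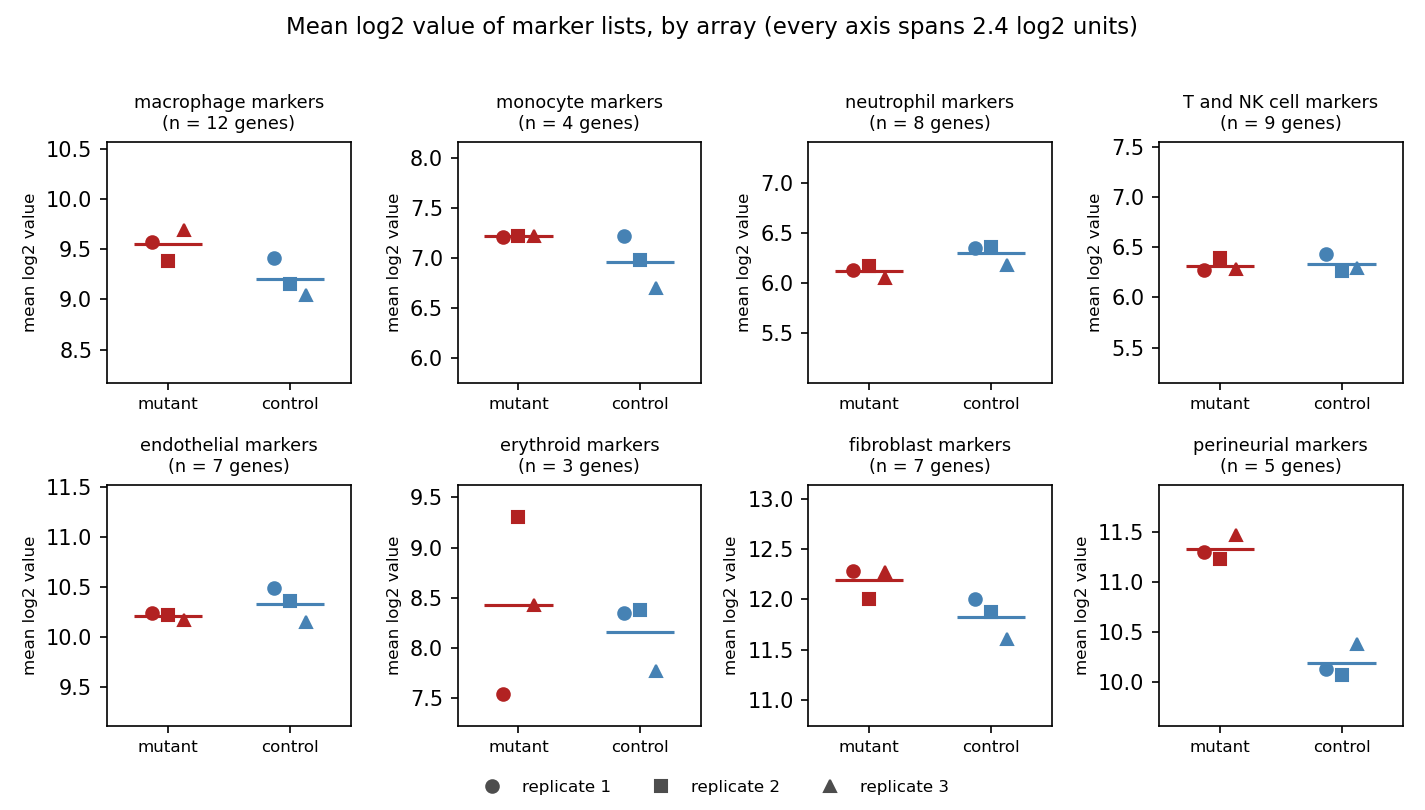
Mean log2 array value of 8 marker lists on each array, with mutant mice left and control mice right, symbols for the replicate number and lines for the means. The 12 macrophage markers and the monocyte, endothelial, erythroid, T and NK cell and fibroblast lists overlap between groups, and the 5 perineurial markers do not. The neutrophil list is also without overlap, by a narrow margin (6.175 in mutant 2, 6.178 in control 3).

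Genes around the chemokine system passed the test in part. Over all genes 5.74% passed as higher, 3.89% as lower and 9.62% in either direction. Whether the counts in these lists or in the marker lists differ from those shares was not tested. Of 27 measured genes of chemokine receptor signalling, 4 rose, 3 fell and 20 did not pass. Gnai1, an inhibitory G protein alpha subunit, differed by −1.28 (SE 0.14, limma adjusted p = 0.00282) and the G protein gamma subunit Gng2 by −1.37 (SE 0.17, 0.0042), while Plcb3, a phospholipase C activated by G proteins, differed by 0.71 (SE 0.095, 0.00543). Those 3 calls held without any 1 sample. Gnai1 and Gng2 were highest in control 3 and lowest in mutant 2, as were the Schwann cell markers S100b and Erbb3. Ackr1 was highest and lowest on the same arrays. The part of Schwann cells in these differences was not tested. Tiam1, an exchange factor for Rac, differed by 0.78 (0.0455) and lost its call in 5 of 6 leave-outs, with adjusted p up to 0.176.

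Of 11 genes that bind or process chemokines 3 rose and 1 fell. The heparan sulfate proteoglycans Sdc4 (1.15, SE 0.17, limma adjusted p = 0.00804) and Sdc2 (0.99, SE 0.097, 0.00176) rose. Adam10, a protease that sheds Cx3cl1 and Cxcl16, differed by −1.30 (SE 0.19, 0.00735), while those ligands had positive differences. Adam10 too was highest in control 3 (12.45) and lowest in mutant 2 (10.52), and shedding was not measured. Hs6st1, a heparan sulfate sulfotransferase, differed by 0.42 (0.0417) and passed in none of the 6 leave-outs (0.0743 to 0.175).

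Of 16 genes that induce inflammatory chemokines 2 rose and none fell. Tlr4, the receptor of bacterial lipopolysaccharide, differed by 0.97 (SE 0.16, limma adjusted p = 0.0108), though not past the test without mutant 1 (0.0555) or mutant 3 (0.0529). Its adaptor Myd88 differed by 0.59 (0.0431) and lost its call in 5 of 6 leave-outs (up to 0.17). The median of this list was −0.01. Of 11 genes of leukocyte adhesion, Icam1, which leukocytes bind on endothelium, rose (0.56, 0.00984) and the integrin subunit Itga4 fell (−0.75, 0.0111). Icam1 did not pass without mutant 1 (0.056) or mutant 3 (0.0564), nor Itga4 without mutant 3 (0.057). Of 7 relatives outside the name rule, among them the platelet chemokine Pf4 (0.29, 0.233), none passed.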

How the data were processed

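Total RNA of 6 sciatic nerves was hybridised to 1-colour Affymetrix whole-transcript arrays with biotin labelling, per the labels' protocols. The authors deposited 1 table of log2 values, 1 per probe set and mouse, from 3.55 to 14.52, with array medians of 8.00 to 8.08. The log base was read from the values, and background correction, normalization and summarisation were not stated; the submitters' processing notes name limma. Precision is limited by the number of arrays. The platform annotation named 20239 of 21225 probe sets by 1 symbol, 0 by several, and 986 stayed unnamed. No genome build is given for the array values; promoter windows carry that of RefSeq.

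The fit, per named gene, was that of lmFit and eBayes in limma 3.58.1 under R 4.3.3 (two-sided), mutant minus control, without a block, with Benjamini-Hochberg adjustment over all named genes. SE is the moderated standard error. The 18 alternatives used low-value filters, other scalings, priors, covariates or weights, the replicate number as a block, every probe set, or fewer samples. Deviations from group means correlated at 0.36, 0.574 and 0.295 between same-numbered samples. Between samples of different number they ran from −0.6067 (mutant 1 with control 2) to 0.3034 (mutant 1 with control 3). Whether the numbers pair the samples was not settled by these values, and the main fit used no pairing. The labels call the samples biological replicates.

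Data were simulated for 20239 genes with independent normal noise, and 50 genes were changed by each size. There 22% of changes of 0.5, 73% of 1, 94.7% of 2 and 99.2% of 4 on the log2 scale were recovered. In the data 9.62% of genes passed, a far larger share than was changed in the simulation. Differences shared by many genes, as of muscle or sex, were not simulated, so recovery in the data can differ. Members and lists were chosen with earlier results of these data known. Named members were those that passed, those whose groups did not overlap, the 6 ligands and 4 receptors with the highest mean array value, and in each role group the one with the smallest p; in other lists up to 4 that passed or the one with the smallest p. All other members given with values (Cxcl9, Cxcl10, Ccl3, Ccr1 and those at the ends of ranges or named as partners among them), and the markers Aif1 and C1qc, were picked with their values in view.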

Additional observations from a re-analysis of the deposited data

How the results depend on the processing

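Cxcl14, Cx3cl1, Cxcl11 and Ackr1 kept their direction and passed in all 18 alternatives, and Ccl8 in the 16 in which it was tested, since it was removed by either filter on low values. Ligands that rose numbered 5, but 3 without the lowest 25% of genes, which removed Ccl8 and Ccl12 from the genes tested, 10 with array weights, and 3 to 7 when 1 sample was left out. The array weight was 4.813 for mutant 1, 0.458 for mutant 2 and 1.518 for mutant 3. It was 0.466 to 1.171 in the controls, so the weighted fit leaned most on mutant 1. Ligands that fell numbered 1, but 2 with array weights and 1 to 2 when 1 sample was left out. Receptors that rose numbered 2, but 4 with array weights, 1 without the lowest 50% of genes, with quantile normalization repeated, median centring, 16 added to the linear values or sex as a covariate, 1 without the 2 muscle-rich samples, and 0 to 4 when 1 sample was left out. Receptors that fell stayed at 1 throughout. With a replicate block 7 ligands and 2 receptors rose, adding Ccl9 and Ccl11, and it changed no other call among the members. Over all genes 1161 rose and 787 fell, with 2411 and 1244 under array weights, 453 lower without the 2 muscle-rich samples, and 502 to 1397 higher and 392 to 744 lower when 1 sample was left out. The difference of Ccl7 ran from −0.0701 (without mutant 1) to 0.3127 when 1 sample was left out, and that of Ackr2 from −0.1956 to 0.1003, and Ackr2 was also positive without the 2 muscle-rich samples (0.1217) and with sex as a covariate (0.071). Apart from the genes that the filters removed, the cause of these changes was not tested. Without detection calls, low values may be background and their differences compressed.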
